A study of Mus musculus with 6 samples.

Results

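Transcripts of 8 complement genes, of 45706 genes listed, were followed in mouse embryonic hearts in which the genes of the RNA-binding proteins RBPMS and RBPMS2 were targeted for deletion in heart muscle cells. The 8 genes were taken by name: the membrane regulators Cr1l, Cd55 and Cd59a, the soluble regulators Serping1 and Clu, the components C3 and C4b, and the receptor C3ar1. The set was chosen by name after the same difference between these knockouts and controls had been measured, so that their values and changes are given as a description and support no claim about complement as a whole. Poly(A) RNA was sequenced from 6 whole hearts of strain C57BL6/J, each labelled as a heart of its own, at an embryonic stage whose day the labels do not give. The 3 controls were littermates with both alleles of RBPMS and of RBPMS2 flox/flox and no Cre named. The 3 knockouts carried the same floxed alleles and were aMyHC Cre pos: Cre recombinase was under the promoter of alpha-myosin heavy chain, a protein of cardiomyocytes. All 6 hearts therefore share the floxed alleles, the effect of Cre itself and that of the deletion cannot be told apart, and cells without Cre keep both genes.

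The complement system is a cascade of plasma proteins in which C1q with its proteases (classical pathway), mannose-binding lectins and collectins with MASP proteases (lectin pathway) or a spontaneous turnover of C3 (alternative pathway) lead to cleavage of C3, and then to assembly of the membrane attack complex. Host cells are shielded by membrane proteins that take apart the C3 convertases or block the attack complex, and by soluble inhibitors. Liver makes most of the circulating components, and macrophages, fibroblasts and other cells of a tissue make some of them locally.

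The values are the reads of each gene after division by a factor per heart and rounding, with near equal totals of 17861435 to 18439201. The spacing of the low values gave estimated depths of 12960709 to 25837261 reads before that division. The targeted genes were at 3868 to 7656 in controls and 852 to 1134 in knockouts for Rbpms, and at 1362 to 1998 and 879 to 1003 for Rbpms2. Xist and Y-linked genes placed control replicates 1 and 3 and knockout replicate 2 as female, and the other 3 hearts as male. Markers of the heart muscle (14 genes) were abundant in every heart, summing to 1264983 to 1328713 in controls and, without overlap, to 1106931 to 1236022 in knockouts; Actc1 and Actn2 fell and Pln rose. Summed macrophage markers (14 genes) were at 1934 to 2209 in controls and 2872 to 3902 in knockouts, and fibroblast markers (10 genes) at 94041 to 109574 and 122725 to 153199. Neither sum overlapped between the groups, and 10 of the 14 macrophage and 5 of the 10 fibroblast markers rose (8.61% of all genes tested did). Nor did the sums of endothelial markers (22255 to 23021 against 26054 to 28689; 6 of 11 rose), epicardial markers (4107 to 4409 against 4686 to 5226; 2 of 10 rose) and mural cell markers (12604 to 13788 against 14514 to 16204; 0 of 6 rose) overlap. The erythroid sum was lower in every knockout (37997 to 66249 against 30656 to 37851), with 0 of 8 markers past the test, and the neutrophil sum overlapped, with 0 of 4 tested markers past it. No marker was at 0 in every heart. In RNA of a whole heart, more cells of a type and more RNA per cell cannot be told apart.

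Of the 8 genes, 5 were higher in the knockouts: Cd55, Clu, C3, C3ar1 and Serping1. Their changes, knockout minus control on the log2(value + 1) scale, ran from 0.62 to 1.33. Cr1l differed by less than its spread, Cd59a was higher on average with overlapping groups, and C4b was barely detected. The call is an adjusted p under 0.05 from limma, fitted over the 15556 genes whose mean over the 6 hearts reached 10, and 8.61% of those genes were called higher and 8.56% lower. Of the 8 genes, 7 entered that fit and C4b did not. The groups did not overlap, with every knockout higher, for the same 5 genes, and for 17.5% of all genes tested (35.4% in either direction). Because the difference between the groups chose the genes, nothing is read from these counts.

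**Figure D1:**
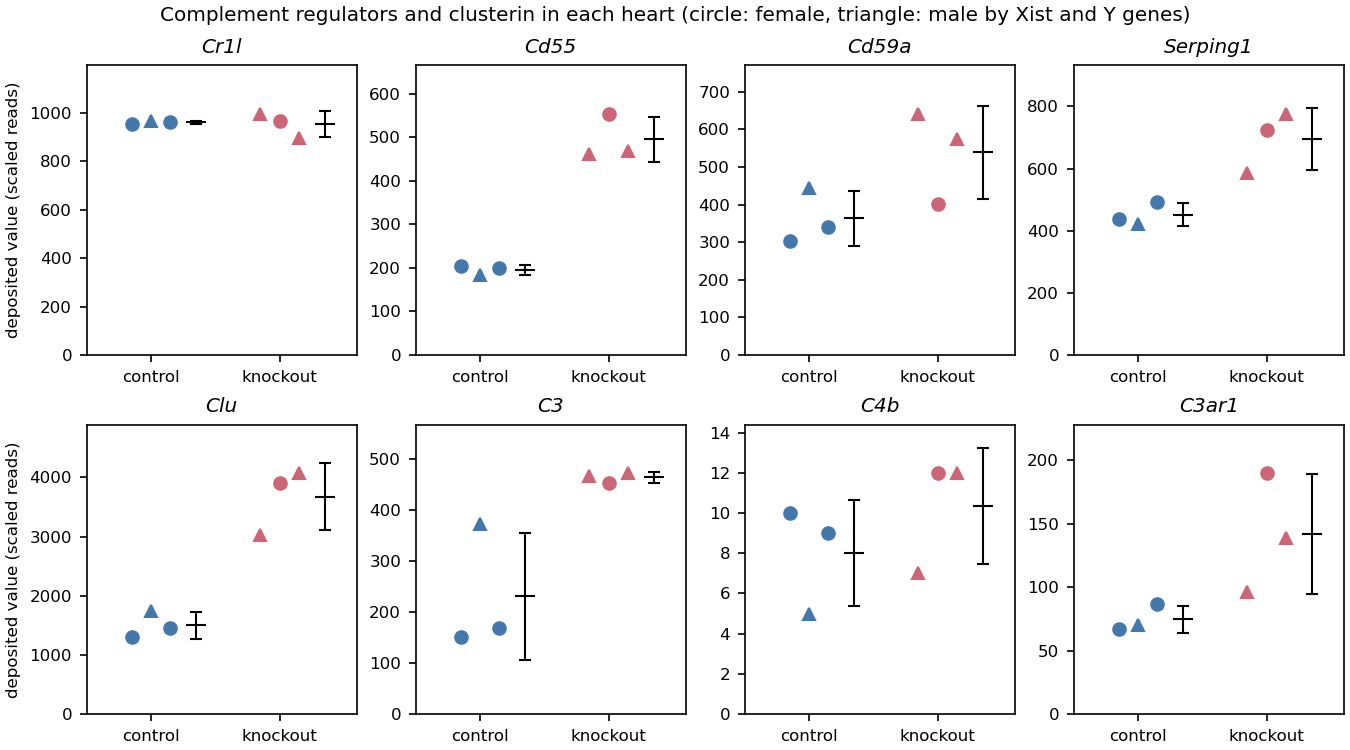
Deposited value (reads scaled by the authors, linear axis from 0) of the 8 genes in the 3 control (blue) and 3 knockout (red) hearts, circles for female and triangles for male hearts, with the mean and SD in black. Cd55 and Clu stand clear of the controls in each knockout, Cr1l lies at 896 to 998 throughout, and C3 varies more among controls than among knockouts.

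The membrane regulators were examined first. Cr1l encodes Crry, the rodent regulator that acts on C3 convertases both by speeding their decay and as a cofactor for cleavage of C3b, and Cd55 encodes the decay-accelerating factor, which is held in the membrane by a glycosylphosphatidylinositol (GPI) anchor and dissociates the same convertases. Both genes lie on mouse chromosome 1, on the minus strand (mm10): Cd55 (ENSMUSG00000026399) from 130439027 to 130462744 and Cr1l (ENSMUSG00000016481) from 195097382 to 195131586. Cd59a (ENSMUSG00000032679; chromosome 2, 104095801 to 104115354, plus strand) encodes a GPI-anchored protein that stops the assembly of the membrane attack complex.

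Cd55 was at 205, 183 and 199 in control hearts (replicates 1, 2 and 3, the order used throughout), against 462, 555 and 469 in knockout hearts. The controls lay close together and every knockout was more than double the highest control. The means were 196 ± 11.4 and 495 ± 51.8 (SD, n = 3 each), a log2 change of 1.33 (SE 0.11), the largest of the 7 genes and rank 109 among all tested genes ordered by rise. Without each heart in turn the change was 1.25 to 1.38.

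Cr1l was at 954, 966 and 963 in control hearts, against 998, 969 and 896 in knockout hearts. The controls spanned a narrow band, and the knockouts lay on both sides of it. The means were 961 ± 6.24 and 954 ± 52.6 (SD, n = 3 each), a log2 change of -0.01 with a 95% confidence interval of -0.17 to 0.14, so that a change of the size seen for Cd55 lies outside the interval. The sign of so small a difference turned with equal totals and without knockout replicate 3.

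Cd59a was at 303, 445 and 341 in control hearts, against 642, 401 and 574 in knockout hearts. Knockout replicate 2, a female heart, lay below control replicate 2, a male heart, so that the groups overlapped. The means were 363 ± 73.5 and 539 ± 124 (SD, n = 3 each), a log2 change of 0.56 (SE 0.18) that was not past the threshold. Within female hearts the controls were at 303 and 341 against 401, and within male hearts at 445 against 642 and 574. With sex as a term the log2 change was 0.38 (SE 0.10) and past the threshold, as it was without control replicate 2 (0.72), without knockout replicate 2 (0.76) and with equal totals (0.59).

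The ratio of Cd55 to Cr1l, each per kb of merged exons, was 0.458, 0.404 and 0.441 in control hearts, against 0.987, 1.22 and 1.12 in knockout hearts. With the lengths of the annotated principal transcripts it was 0.123 to 0.14 and 0.302 to 0.373. The ratio was higher in all 3 knockouts than in any control. This restates the rise of Cd55 beside a Cr1l that differed by less than its spread. A change of length multiplies the ratio of every heart by the same factor, so it alters the absolute size of the ratio only.

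The 250 bases before the RefSeq start of Cd55, Cr1l and C3 are shown. Cd55 and Cr1l encode regulators of the same convertases and differ in their change, and C3 is the protein those convertases cut. The sequences are from RefSeq (GRCm38.p6, the assembly of mm10), 5′ to 3′ on the strand of the gene, and capitals mark matches to the motifs searched. RefSeq promoters were matched for 5 of the 8 genes. The RefSeq start of Cr1l differs from the coordinates given above: its window begins at 195131571, whereas the gene as given reaches 195131586.
Cd55 (upstream, chr1:130462745-130462994, minus strand): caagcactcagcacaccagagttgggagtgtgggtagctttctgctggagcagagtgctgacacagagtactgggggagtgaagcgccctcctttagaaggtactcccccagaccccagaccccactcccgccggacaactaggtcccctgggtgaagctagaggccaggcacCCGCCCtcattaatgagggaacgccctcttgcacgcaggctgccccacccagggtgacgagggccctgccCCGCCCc
Cr1l (upstream, chr1:195131571-195131820, minus strand): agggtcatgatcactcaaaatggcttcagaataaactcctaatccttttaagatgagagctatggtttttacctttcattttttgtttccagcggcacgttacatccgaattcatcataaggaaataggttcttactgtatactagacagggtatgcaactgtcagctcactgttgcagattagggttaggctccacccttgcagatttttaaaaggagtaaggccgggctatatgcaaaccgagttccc
C3 (upstream, chr17:57228137-57228386, minus strand): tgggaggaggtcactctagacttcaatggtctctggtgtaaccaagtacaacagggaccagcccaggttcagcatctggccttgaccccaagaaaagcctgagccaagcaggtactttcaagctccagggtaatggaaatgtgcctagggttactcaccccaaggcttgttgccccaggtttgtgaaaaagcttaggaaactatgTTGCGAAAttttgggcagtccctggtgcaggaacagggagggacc
The motifs, searched on both strands, were the AP-1 motif TGANTCA, the interferon-stimulated response element, the GAS motif of STAT factors TTCNNNGAA, the C/EBP motif TTGCNNAA, an NF-kappaB motif, the GC box GGGCGG and, as core promoter elements, the letters CCAAT. The TATA box was searched as TATAAA. Cd55 held 2 GC boxes, read on the opposite strand and starting 77 and 7 bases before the start, a motif found in 32.9% of 27025 promoters of this length. Its window was 64.0% G and C, against a median of 52.0% over all promoters and 41.6% for Cr1l, where none of these motifs was found. C3 held a C/EBP match 45 bases before its start, a motif found in 9.55% of promoters. Of the other matched genes, C3ar1 held an AP-1 match 22 bases before its start (6.87% of promoters). It also held a GC box 76 bases before the start (32.9%) and the letters TATAAA 235 bases before it (13.0%). Cd59a held an interferon-stimulated response element 187 bases before its start (3.04%). The GAS, NF-kappaB and CCAAT motifs were found in 0 of the 5 windows. These are matches of letters only.

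The soluble regulators were Clu and Serping1. Clu (ENSMUSG00000022037; chromosome 14, 65968483 to 65981547, plus strand) encodes clusterin, a secreted chaperone that binds terminal complement proteins and misfolded proteins. It was at 1300, 1746 and 1451 in control hearts, against 3024, 3909 and 4079 in knockout hearts. The lowest knockout lay well above the highest control. The means were 1499 ± 227 and 3671 ± 566 (SD, n = 3 each), a log2 change of 1.29 (SE 0.13). Clu was the most abundant of the 8 genes per kb, at 436 ± 66.0 per kb of merged exons in controls and 1068 ± 165 in knockouts (SD, n = 3 each).

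Serping1 (ENSMUSG00000023224; chromosome 2, 84765387 to 84775444, minus strand) encodes C1 inhibitor, a serpin that blocks the proteases of C1, the MASP proteases and the contact system. It was at 439, 421 and 492 in control hearts, against 585, 725 and 777 in knockout hearts. All knockouts exceeded all controls, by a smaller margin than for Cd55 or Clu. The means were 451 ± 36.9 and 696 ± 99.3 (SD, n = 3 each), a log2 change of 0.62 (SE 0.11), and 0.53 to 0.74 without each heart in turn.

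Among the components, C3 (ENSMUSG00000024164; chromosome 17, 57203970 to 57228136, minus strand) encodes the protein on which the activating pathways converge. It was at 151, 373 and 168 in control hearts, against 466, 453 and 473 in knockout hearts. Control replicate 2 stood apart, at more than double the other controls and nearer to the knockouts, which lay close together. The means were 231 ± 124 and 464 ± 10.2 (SD, n = 3 each), a log2 change of 1.13 (SE 0.27). Within females the change was 1.502 (2 controls, 1 knockout) and within males 0.33 (1 control, 2 knockouts); neither has a test. The call was lost without control replicate 1 (0.89), control replicate 3 (0.96) or knockout replicate 2 (1.15), and without control replicate 2 the change was 1.54. It was also lost with no filter and against a fold change of 1.2.

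C4b (ENSMUSG00000073418; chromosome 17, 34728380 to 34743882, minus strand), the component of the classical and lectin C3 convertase, was at 10, 5 and 9 in control hearts, against 7, 12 and 12 in knockout hearts. The values were low, the groups overlapped, and with a mean under 10 no change was fitted. Its neighbour C4a, a near copy, was at 13 to 17 and 15 to 27 and was not called. Of the 75-base windows of C4b transcripts, 22.7% also occur in C4a, so reads between them are uncertain.

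C3ar1 (ENSMUSG00000040552; chromosome 6, 122847138 to 122856161, minus strand) encodes the receptor for the fragment C3a and is known from macrophages and other myeloid cells. It was at 67, 70 and 87 in control hearts, against 96, 190 and 139 in knockout hearts. The knockouts were spread widely, with replicate 1 just above the highest control and replicate 2 the highest. The means were 74.7 ± 10.8 and 142 ± 47.1 (SD, n = 3 each), a log2 change of 0.87 (SE 0.23). The call was lost without control replicate 1 (0.80), control replicate 2 (0.83), knockout replicate 2 (0.63) or knockout replicate 3 (0.86). It was also lost with limma-voom on estimated reads (0.83), with no filter and against a fold change of 1.2.

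**Figure D2:**
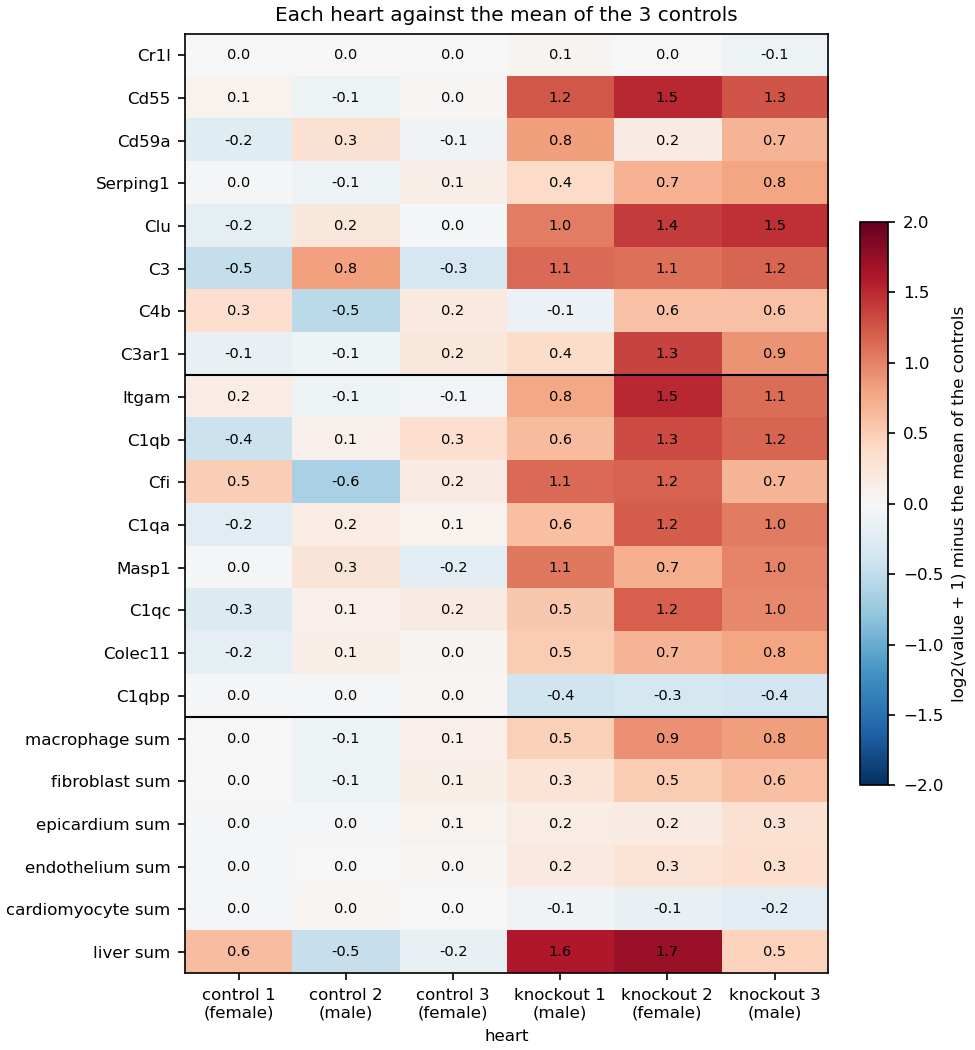
Difference of each heart from the mean of the 3 controls, on the log2(value + 1) scale, for the 8 genes (top), other complement genes that passed the threshold (middle) and summed markers of cell types (bottom); red is higher and blue lower. Knockout replicate 2 holds the highest C3ar1, C1q and macrophage values, and control replicate 2 stands apart for C3 and not for the marker sums of macrophages or fibroblasts.

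Set against the markers of other cells, the genes fell into patterns that differed between the marker sums. Per 1000 units of the summed macrophage markers, C3ar1 was at 32.4 to 39.4 in controls and 33.4 to 48.7 in knockouts, and these ranges overlapped. Serping1 on that scale was at 212 to 223 and 186 to 210, lower in the knockouts. So was Cr1l, at 436 to 499 and 243 to 347, although its own values overlapped between the groups. Cd55 stayed apart, at 90.1 to 99.2 against 127 to 161, and so did Clu, at 629 to 903 against 1000 to 1100. C3 overlapped, at 73.1 to 193 against 116 to 162. Per 1000 units of the fibroblast sum, Cd55 (1.82 to 2.05 against 3.06 to 3.86), Clu (13.0 to 18.6 against 24.6 to 27.2) and Serping1 (4.39 to 4.49 against 4.77 to 5.07) stayed apart, and C3 and C3ar1 overlapped. Per 1000 units of the epicardial sum, C3 (36.8 to 90.1 against 90.5 to 99.4) and C3ar1 (16.3 to 19.7 against 20.5 to 40.1) stayed apart. Per 1000 units of the endothelial sum C3 stayed apart (6.78 to 16.3 against 16.4 to 17.9) and C3ar1 overlapped. Cd55, Clu and Serping1 stayed apart on both of these scales. Cr1l was lower in the knockouts on every scale, not the macrophage scale alone. It was at 8.79 to 10.3 against 5.85 to 8.13 for the fibroblast sum and 218 to 233 against 171 to 213 for the epicardial sum. For the endothelial sum it was at 41.8 to 42.9 against 31.2 to 38.3. Its own values overlapped between the groups, whereas each marker sum was higher in every knockout. The part of these cells in the changes was not tested.

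Because liver is a main source of complement proteins, 9 liver genes were summed: 91 to 193 in controls and 174 to 418 in knockouts, overlapping. Albumin (Alb) was at 54, 11 and 9 in control hearts, against 116, 98 and 3 in knockout hearts. Of the 5 liver genes tested, whose median log2 change was 1.06, 1 rose: Ahsg, which encodes a plasma protein, was at 83, 44 and 67 in control hearts, against 138, 197 and 132 in knockout hearts (1.28, SE 0.24, limma adjusted p = 0.00632). The part of liver RNA in the changes was not tested.

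Levels can be compared between genes only per length. Per kb of merged exons the order in controls was Clu, Cd59a, Serping1, Cr1l, C3, Cd55, C3ar1 and C4b. Cd59a (200.4 ± 40.6) and Serping1 (194 ± 15.9) did not differ beyond their spread, nor did C3 (44.9 ± 24.0) and Cd55 (40.3 ± 2.34; SD, n = 3 each). In the knockouts Cd55, at 102 ± 10.7, was next above Cr1l, at 92.2 ± 5.08, and C3, at 90.2 ± 1.97 (SD, n = 3 each). The values of Cd55 and Cr1l overlapped, as did those of Cr1l and C3 and those of Serping1 and Cd59a. By merged exons these neighbours therefore did not differ beyond their spread. Merged exons of Cr1l span 10349 bases, against 1651 for its principal transcript. With principal transcripts Cr1l took the second place in both groups, at 582 per kb in controls and 578 in knockouts, behind Clu at 828 and 2028. On that length Cd55 was at 77.3 in controls and 196 in knockouts, and C3 at 44.9 and 90.3. Cr1l was then no neighbour of Cd55 or C3, so the order depends on the length used.

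Reads shared between gene copies touch few of these values. No 75-base window of Clu, Serping1, C3 or C3ar1 transcripts occurs in another annotated gene. For Cd55 6.13% do, in Cd55b and in the antisense gene Gm16083, for Cr1l 2.88%, in the pseudogene Crry-ps, and for Cd59a 1.66%, in Cd59b. Cd55b (listed as Daf2) was at 0 or 1 in every heart, Cd59b at 3 to 13, and Cr2, the neighbour of Cr1l, at 3 to 5. Whether the counting used strand is not stated, so reads of Cd55 and Gm16083 over 102 shared exon bases cannot be told apart.

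The remaining complement genes were listed by their role and not by how they moved, but with earlier results of these data known. Their counts are therefore a description and support no claim about complement as a whole. Of 54 such genes, 25 had values high enough to test; 8 rose (8.61% of all genes tested did), 1 fell and 16 did not pass. Their median log2 change was 0.38, against 0.0018 over all genes tested. A further 7 were at 0 in all 6 hearts, among them Mbl2, C8b and C9, and the terminal components Hc (C5), C6 and C8a were at 0 to 2. C7, mentioned after its values were seen, was at 4, 9 and 4 in control hearts, against 7, 19 and 7 in knockout hearts. Its groups overlapped and its mean was under 10. Of the terminal pathway C8g alone was therefore tested.

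Among the initiating genes, 5 of 11 tested rose and 0 fell, against 8.61% and 8.56% of all genes tested. Masp1, a protease of the lectin pathway, was at 302, 370 and 266 in control hearts, against 648, 513 and 615 in knockout hearts, a log2 change of 0.93 (SE 0.13, limma adjusted p = 0.00195). Colec11, a collectin that binds sugars on target surfaces, was at 181, 224 and 212 against 291, 328 and 355 (0.66, SE 0.12, limma adjusted p = 0.00567). The C1q chains rose as well: C1qa by 0.95 (SE 0.17), C1qb by 1.04 (SE 0.21) and C1qc by 0.90 (SE 0.17), with limma adjusted p = 0.00478, 0.00968 and 0.00747. C1q is made by macrophages, whose summed markers were at 1934 to 2209 in controls and 2872 to 3902 in knockouts, and their part was not tested. C1s1, a protease of C1, was at 38 to 45 and 50 to 65, and the scavenger receptor gene Colec12 at 480 to 784 and 595 to 759, and neither passed.

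Among the soluble regulators, Cfi, factor I, the protease that cuts C3b with the help of cofactors such as Crry, was at 43, 19 and 34 against 68, 70 and 49 (0.997, SE 0.29, limma adjusted p = 0.0424), and this call was lost without control replicate 2 (0.67), control replicate 3 (1.08), knockout replicate 1 (0.93) or knockout replicate 2 (0.91). C1qbp, a mitochondrial protein first described as a binder of C1q, fell from 3366 ± 89.5 to 2602 ± 43.2 (SD, n = 3 each), a log2 change of -0.37 (SE 0.06, limma adjusted p = 0.00278). Vtn, vitronectin, which like clusterin binds the terminal complex, was at 18, 21 and 27 in control hearts, against 14, 16 and 9 in knockout hearts, and did not pass (limma adjusted p = 0.131).

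No further membrane regulator passed. Cd46, another cofactor for C3b cleavage, was at 68, 68 and 65 in control hearts, against 89, 87 and 100 in knockout hearts and was chosen for mention after its values were seen (0.45, SE 0.145, limma adjusted p = 0.0593). Thbd, thrombomodulin, was at 468 to 625 and 567 to 612, and Susd4 at 68 to 82 and 63 to 100, both overlapping. Of the receptors, Itgam, the alpha chain of complement receptor 3 on myeloid cells, was at 36, 30 and 31 against 56, 94 and 71 (1.14, SE 0.22, limma adjusted p = 0.0072), C5ar1 was at 26 to 34 and 19 to 53, and Cd93 at 5028 to 5463 and 5470 to 5966. The alternative pathway gene Cfp, properdin, was at 216 to 233 and 234 to 257 and did not pass.

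**Figure D3:**
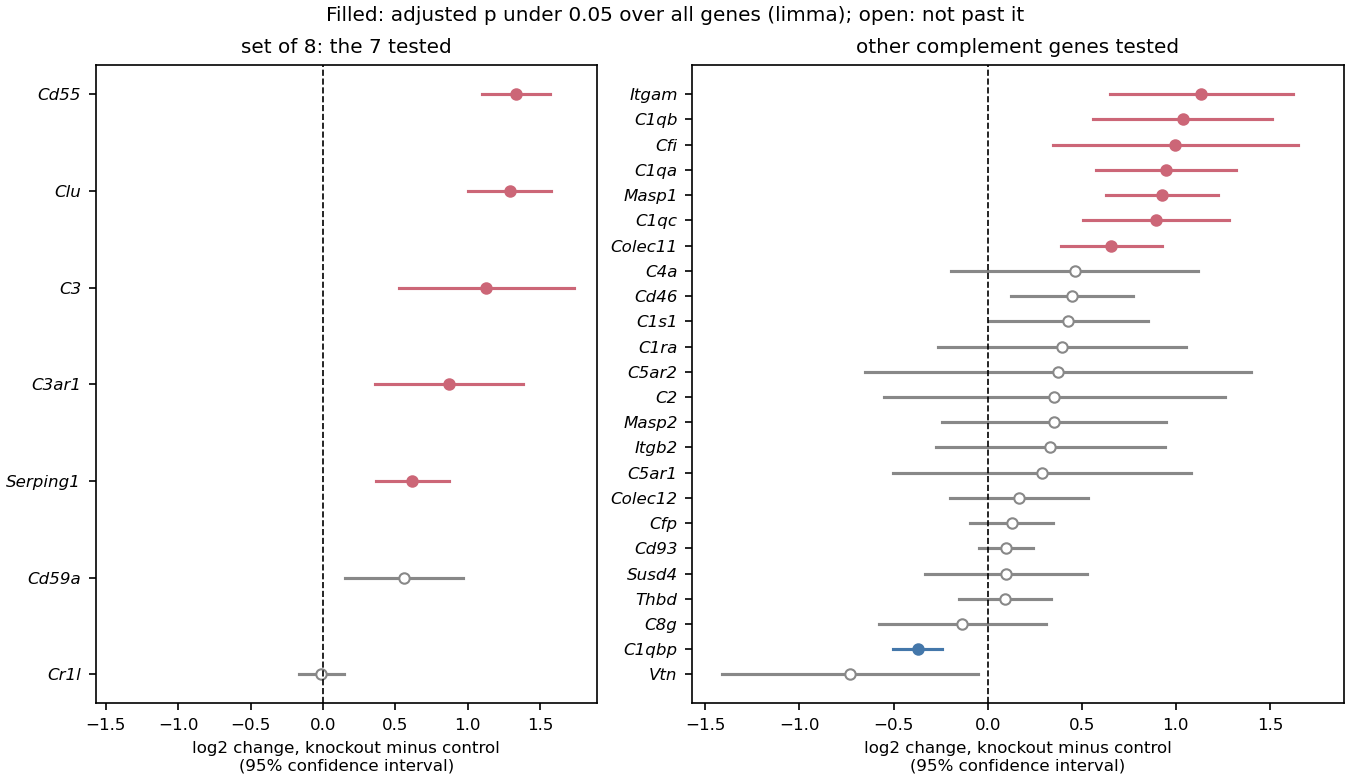
Log2 change, knockout minus control, with its 95% confidence interval from limma, for the 7 tested genes of the set (left) and other complement genes tested (right); filled points passed an adjusted p of 0.05 over all genes. On the right the C1q chains, Masp1, Colec11, Cfi and Itgam are filled above 0 and C1qbp below it.

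Machinery that acts on these proteins was compared in the same fit. Cd55 and Cd59a need the GPI anchor. Of 26 genes of its synthesis and transfer 3 rose and 1 fell, with a median log2 change of 0.05. Over all genes tested 8.61% rose and 8.56% fell, and counts this small are not read as a result about the anchor. Pigs and Pigt, subunits of the transamidase that attaches the anchor, changed by 0.46 (SE 0.09, limma adjusted p = 0.00927) and 0.30 (SE 0.09, limma adjusted p = 0.0415), and Pgap1, which trims the anchor's lipid part, by 0.46 (SE 0.11, limma adjusted p = 0.0204). Pigv, an anchor mannosyltransferase, fell by 0.31 (SE 0.09, limma adjusted p = 0.0441). Of the 6 fits that each left out a heart, the call was lost in 4 for Pigt, in 4 for Pgap1 and in 6 for Pigv. Pigq, of the first step, was at 1762 to 2006 and 1560 to 1722, and Gpaa1 at 792 to 1104 and 933 to 1221, and neither passed.

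Receptors that bind clusterin or its lipoprotein particles were compared next. Trem2, a receptor of macrophages, was at 22, 26 and 27 against 44, 53 and 46 (0.91, SE 0.20, limma adjusted p = 0.0139), and without knockout replicate 2 it did not pass (0.83). Vldlr was at 3102 to 3911 and 3292 to 4087, and Lrp1 at 2001 to 2466 and 2379 to 3684, both overlapping. Outside complement, C1 inhibitor also acts on plasma kallikrein, factors XI and XII and, more weakly, on plasminogen activators. Klkb1 was at 0 in every heart and F11 and F12 at 0 to 3, whereas Plat, tissue plasminogen activator, rose from 791 ± 18.7 to 1059 ± 28.3 (SD, n = 3 each; 0.42, SE 0.07, limma adjusted p = 0.00295). Plau, urokinase, was at 140 to 185 and 152 to 236 and did not pass.

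Interferon, interleukin 6 and NF-kappaB signals are known to control several complement genes. Of 19 tested genes of these routes 5 rose and 0 fell, against 8.61% and 8.56% of all genes tested. The list was made with earlier results known, so the count is a description only. Irf7 was at 28, 29 and 36 in control hearts, against 69, 280 and 157 in knockout hearts, a log2 change of 2.20 (SE 0.40, limma adjusted p = 0.00564), with knockout replicate 2 the highest, as for C3ar1. Irf9 changed by 0.63 (SE 0.16, limma adjusted p = 0.0258), a call lost without any of the hearts but knockout replicate 1; without knockout replicate 2 the change was 0.45. Stat3, the main mediator of interleukin 6, rose from 1891 ± 71.2 to 2401 ± 124 (SD, n = 3 each; 0.34, SE 0.07, limma adjusted p = 0.00702), and Il6ra, the receptor chain, from 32, 37 and 18 to 60, 91 and 63 (1.305, SE 0.28, limma adjusted p = 0.0122), a call lost without knockout replicate 2 (1.12). Il6st, the shared receptor chain, was at 2386 to 2657 and 2554 to 2621, and Ifngr2, a chain of the interferon gamma receptor, at 2786 to 3087 and 2557 to 2850. Il6 was at 0 to 4 in all hearts, and Ifng at 0.

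Genes whose profile over the 6 hearts was closest to that of each tested gene were listed as a description, by the root mean square difference of log2(value + 1) after centring each gene on its own mean. For Clu they were Smoc1 (0.096), Sema3b (0.10) and Slc6a6 (0.11), a matricellular protein, a semaphorin and the taurine transporter. For Cd55 they were Adgrf4, Gria4 and Pcdh9 (0.096 to 0.12), all at 65 or below in every heart. For C3, Galr2 (0.16) was nearest, followed by Atp6v0e2 (0.20) and Cnksr1. Serping1 lay closest to Pid1 (0.036) and Mxra8 (0.044), C3ar1 to Uba7, Slc11a1 and the leukocyte phosphatase gene Ptpn6 (0.11 each), Cd59a to Slc16a9, Esm1 and Serpinb6b (0.12 to 0.14) and Cr1l to Cnbp (0.01).

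For the 5 genes called higher, the direction was the same in all 16 other settings. Within female and within male hearts, with no test, the log2 changes were 1.45 and 1.34 for Cd55, 1.51 and 1.01 for Clu, 0.64 and 0.68 for Serping1, and 1.304 and 0.71 for C3ar1. Cd55 and Clu were past the threshold in each of the 16 settings, with log2 changes of 1.25 to 1.40 and 1.19 to 1.42, Serping1 in 15, C3 in 11 and C3ar1 in 9. Cd59a passed in 4 of 16 and Cr1l in 0.

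**Figure D4:**
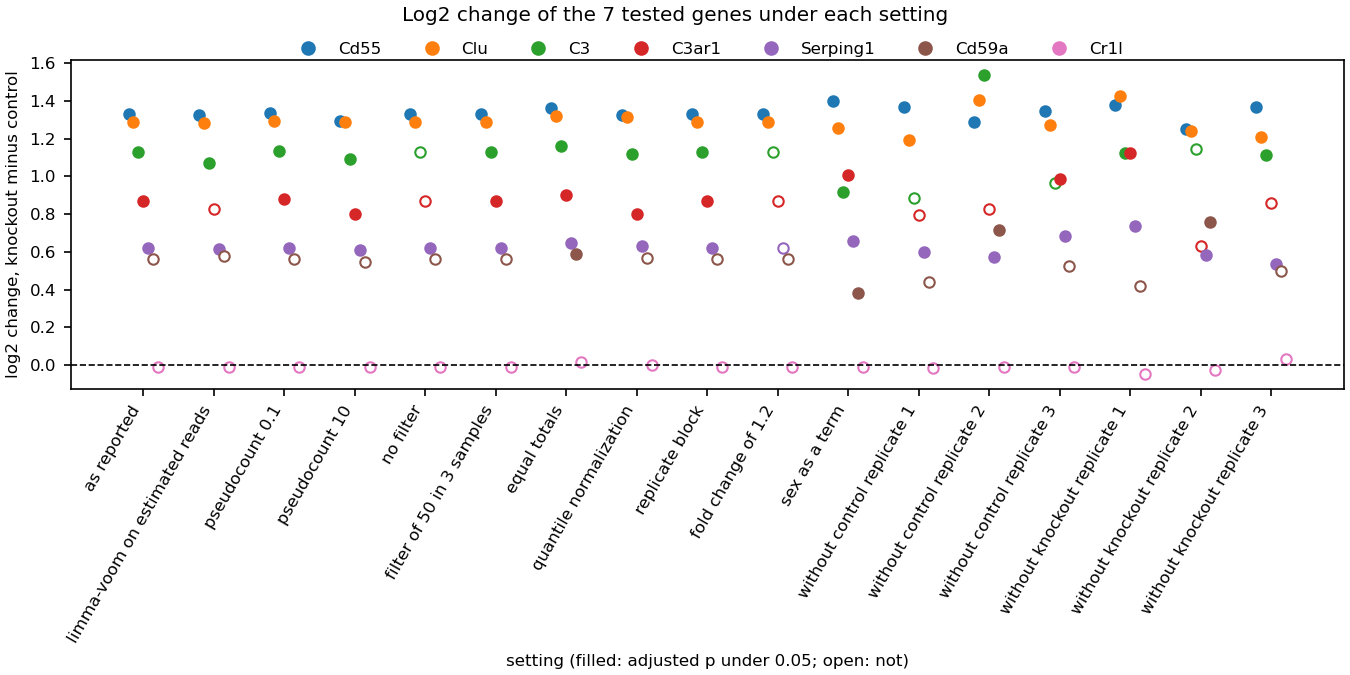
Log2 change, knockout minus control, of the 7 tested genes under the reported fit and the 16 other settings; filled points passed an adjusted p of 0.05 and open points did not. Cd55 and Clu are filled throughout, Cr1l lies between -0.04 and 0.03, and C3, C3ar1 and Cd59a change between filled and open.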

How the data were processed

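Poly(A) RNA of 6 hearts, 3 per group, was sequenced from stranded paired-end libraries, per the labels' protocols. The submitters' processing notes name Trimmomatic, STAR 2.4.2a, featureCounts 1.5.0, DESeq, DESeq2 and build mm10, with no roles. The deposited values are treated as a score: reads per gene that the authors scaled per sample and then rounded, as read from the spacing of values up to 150, since the header gives no unit. That spacing gave the estimated depths. The values are no counts, so limma 3.58.1 (R 4.3.3, variance trend, group only) was fitted on log2(value + 1), keeping genes whose mean reached 10, with Benjamini-Hochberg adjustment of p over all of them. The log scale understates changes of low genes. The fit was tested on simulated data.

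The 8 genes and all lists were chosen with earlier results of these data known. Of 212 list symbols 1 was unmatched, and Cd55b was matched by its identifier. Named were the 8 genes, up to 6 called and 2 uncalled genes of each pathway list (some are left unnamed or given as ranges), paralogs, and the 3 nearest profiles; genes at or near 0 were added after their values were seen. Coordinates and exon lengths are from GENCODE M21 (GRCm38), which held 45143 of the 45706 identifiers. Hearts are labelled as separate samples, and which litter each came from is not given. Python 3.11.15 served for the tables (pandas 2.3.3, numpy 2.4.6) and plots (matplotlib 3.10.9). Alternatives were limma-voom, pseudocounts of 0.1 and 10, omitting the filter or requiring 50 in 3 samples, equal totals, quantile normalization, the replicate number as a block, testing against a fold of 1.2, a term for sex, and leaving out each heart. Some genes of these lists enter the counts and are not reported here. Lengths of principal transcripts were added after seeing the data.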

Additional observations from a re-analysis of the deposited data

How the results depend on the processing

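No called direction reversed in any of the 16 settings. The 5 of the 8 genes called higher were 3 with no filter and 2 (Cd55 and Clu) against a fold change of 1.2, and 3 to 5 without each heart in turn; 0 were lower in any setting. Over all genes, 1339 higher and 1331 lower became 211 and 207 against a fold change of 1.2, 846 were higher with no filter, and 614 to 1237 were higher and 691 to 1225 lower without each heart; equal totals gave 1569 higher and 1091 lower. Of the other complement genes, 8 higher and 1 lower became 4 and 0 against a fold change of 1.2. Of the 4 further lists, 10 higher and 2 lower became 1 and 1 against a fold change of 1.2, and 4 (without knockout replicate 2) to 13 higher and 1 to 2 lower without each heart; 1 was lower with sex as a term, with no filter and with equal totals. With the replicate block 5 of the 8 genes were higher and, over all genes, 1787 higher and 1743 lower. The labels give same-numbered hearts a number in common and name no litter. Their deviations correlated at -0.04, -0.37 and 0.05, and no knockout deviated most like the control of its own number. Every same-numbered pair was of opposite sex by Xist and Y-linked genes. These correlations therefore cannot show whether equal numbers share a litter. The causes were not tested. For the 37 named genes outside the set, 523 of 588 values kept their call, 55 lost it and 10 gained it. Low genes carry counting error that the rounded values do not show, most in control replicate 3, the shallowest library.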
